A study of Homo sapiens with 9 samples.

Results

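The 10 genes described here are members of the BCL2 family of apoptosis regulators (BCL2, BCL2L1, MCL1, BCL2L11, BBC3, PMAIP1, BMF, BAX, BAK1 and BID). They were chosen by name, although earlier results of these data were known. They make up 10 of the 18417 genes that have a probe with 1 gene symbol on the array. Each of the 10 had exactly 1 such probe, and no filter on low signals was applied, so all 10 were measured. MDA-MB-231, a human breast cancer cell line of the mesenchymal, triple negative kind, was treated for 24 h with 2.5 μM SID peptide (SID), with a scrambled peptide (SCR), or was left untreated (UT). The SID peptide joins a cell-penetrating TAT stretch to the SIN3 interaction domain of MXD1 and is a decoy for the PAH2 domain of the corepressor SIN3A, and SCR carries the same TAT stretch in front of a shuffled sequence. Expression was read on Affymetrix human gene arrays, 1 per sample, with 3 arrays in each group and 9 in all. Values are log2 signals of a probe set, normalized by the authors, so that a difference of 1 is a 2-fold change, and a probe's signal is compared here between arrays only, never with that of another probe.

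Proteins of this family decide whether the outer membrane of the mitochondrion stays closed. Guardians such as BCL-XL and MCL-1 hold the effectors BAX and BAK in check, and BH3-only proteins such as BIM, PUMA and NOXA are made or released under stress and bind the guardians, the effectors or both. Once the effectors form pores, cytochrome c leaves the mitochondrion and caspases are activated. Part of this control is exerted on the RNA of the BH3-only genes, whereas other steps, such as the cleavage of BID or the degradation of MCL-1, act on protein and are not seen on an expression array.

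Promoter windows of 250 bases before to 50 bases after a start site were read from RefSeq (GRCh38.p14). The table gave 15 windows for 9 of the 10 genes, and MCL1 had no entry. Those of BCL2L11 and PMAIP1 are shown because these BH3-only genes had the largest differences between SID and SCR. Those of BAX and BID are shown because these genes had the lowest, and because both hold CACGTG, the E-box that is bound by MAX with MYC or with MXD1, the protein from which the SID peptide was derived. The windows are BCL2L11 chr2:111120664-111120963 (plus strand), PMAIP1 chr18:59899746-59900045 (plus strand), BAX chr19:48954625-48954924 (plus strand) and BID chr22:17773934-17774233 (minus strand). Capitals mark CACGTG in BAX and BID and the forkhead motif GTAAACA in BCL2L11.
BCL2L11: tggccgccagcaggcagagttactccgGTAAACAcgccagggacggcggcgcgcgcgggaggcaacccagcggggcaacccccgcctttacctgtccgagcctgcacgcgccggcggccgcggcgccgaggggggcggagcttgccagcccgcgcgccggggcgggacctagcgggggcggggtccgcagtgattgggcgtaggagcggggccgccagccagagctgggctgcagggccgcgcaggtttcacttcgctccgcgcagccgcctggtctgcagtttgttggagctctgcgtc
PMAIP1: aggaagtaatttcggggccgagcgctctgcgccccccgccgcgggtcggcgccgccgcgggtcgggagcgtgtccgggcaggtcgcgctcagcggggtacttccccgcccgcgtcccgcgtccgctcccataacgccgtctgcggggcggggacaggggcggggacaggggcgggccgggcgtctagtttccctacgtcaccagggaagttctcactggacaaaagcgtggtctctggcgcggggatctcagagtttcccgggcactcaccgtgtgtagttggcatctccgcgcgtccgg
BAX: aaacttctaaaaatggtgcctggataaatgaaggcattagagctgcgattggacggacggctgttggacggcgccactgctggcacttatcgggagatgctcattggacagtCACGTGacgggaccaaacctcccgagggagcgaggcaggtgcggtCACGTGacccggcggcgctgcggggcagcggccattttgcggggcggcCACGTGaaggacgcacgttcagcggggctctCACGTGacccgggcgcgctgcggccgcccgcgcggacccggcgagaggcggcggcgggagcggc
BID: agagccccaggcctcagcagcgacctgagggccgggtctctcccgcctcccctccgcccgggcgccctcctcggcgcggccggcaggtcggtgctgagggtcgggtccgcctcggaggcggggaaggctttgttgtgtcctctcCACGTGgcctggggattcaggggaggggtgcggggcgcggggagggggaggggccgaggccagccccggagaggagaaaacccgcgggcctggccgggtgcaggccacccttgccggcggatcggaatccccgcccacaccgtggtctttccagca

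Both strands of every window were searched, CACGTG reading the same on both. The BAX window held 4 copies, which began 138, 93, 45 and 14 bases before the start site. Of 35116 promoter windows of the same length, 7.26% held at least 1 copy and 5 windows, of 5 genes, held 4 or more. BID, which has 5 windows, held 1 copy in each of 2 overlapping ones, 106 bases before the start site of the window shown, and BBC3 held 1 copy 232 bases before its start. GTAAACA, bound by FOXO factors, lay 223 bases before the BCL2L11 start and was present in 3.42% of all windows. TGTCA, the core bound by TGIF1, was found in the windows of BBC3 and BAK1 and in 38.9% of all windows, and the AP-1 motif TGACTCA in that of BBC3 and in 4.95% of all windows. In the windows of BCL2, BCL2L1, PMAIP1 and BMF none of the 4 motifs was present. A match is a description of the letters and does not show that a factor binds there.

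The arrays fell into separate sets that did not follow the treatment alone. Across all probes, the SID and SCR arrays of replicates 1 and 2 correlated with each other at 0.963 to 0.995, and the other 5 arrays (replicate 3 of SID and of SCR, and the UT arrays) at 0.992 to 0.997, but correlations between these sets were only 0.908 to 0.929. The 4 peptide arrays of replicates 1 and 2 also parted by peptide. Their SID arrays correlated at 0.993 and their SCR arrays at 0.995, but SID with SCR at 0.963 to 0.976. Marker genes differed between the sets, and some went against the labelled cell line. All 6 mesenchymal markers measured (VIM, CD44, CAV1, AXL, EGFR and MSN) were higher on the 4 peptide arrays of replicates 1 and 2, with a mean log2 signal of 12.95 to 13.15, against 11.49 to 11.60 on the other 5. Of 9 luminal or epithelial markers, 4 (GATA3, EPCAM, CDH1 and KRT19) were higher on those 4 arrays with no overlap and 1 (KRT8) was lower, and the list's mean was 9.39 to 10.40, against 8.55 to 8.67. In the groups, the epithelial mean ran between 8.61 and 9.41 in SID, between 8.66 and 10.40 in SCR and between 8.55 and 8.67 in UT. CDKN2A, a gene known to be deleted in MDA-MB-231, gave 7.85, 7.58 and 11.17 in SID, 9.91, 10.03 and 10.97 in SCR and 10.97, 11.21 and 10.96 in UT. The signal was thus lowest on SID replicates 1 and 2 and highest on the 5 arrays of the other set. CDH1, the gene of E-cadherin, which this line is known to express at most weakly, was high on SCR replicates 1 and 2 alone, at 10.13 and 11.08, against 6.73 to 7.26 on all other arrays. Of 3 leukocyte markers, CD14 was higher on the 4 arrays, PTPRC and CD3E were not, and PTPRC stayed between 4.84 and 5.07 on all 9 arrays. Between SID and SCR in replicates 1 and 2 alone, CDKN2A differed by -2.26 and CDH1 by -3.45, whereas CD44 differed by -0.06. Whether the sets, or SID and SCR within replicates 1 and 2, differ in cell identity or stock was not tested. The differences of the 10 genes between SID and SCR are therefore given for all arrays and for replicates 1 and 2 alone. A supplementary sheet of the study also heads SCR replicate 3 with a later time than the labels give.

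**Figure D1:**
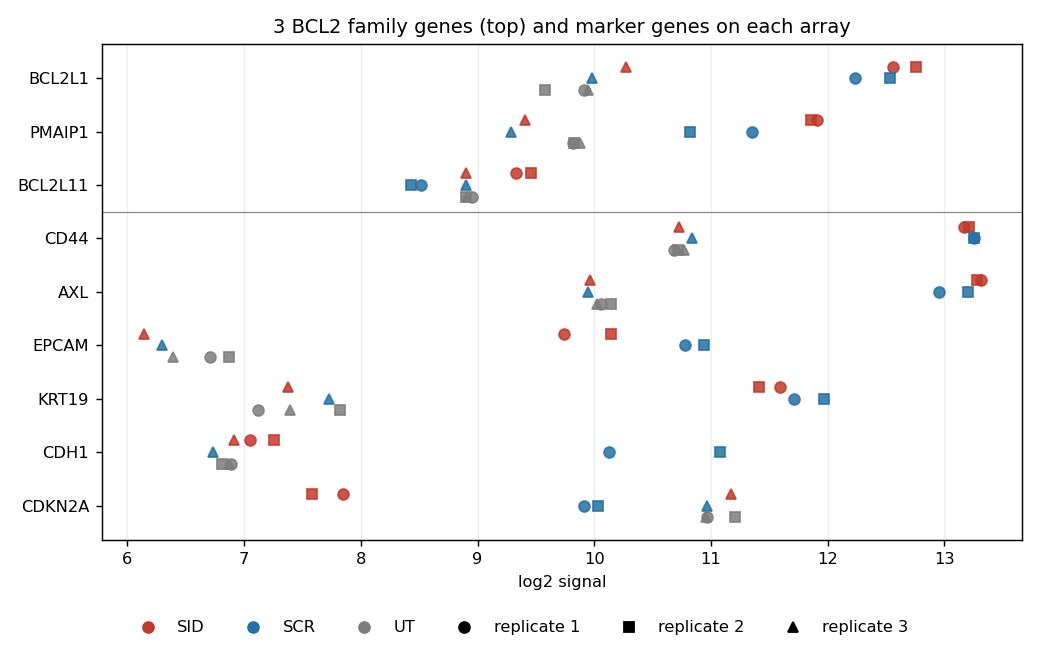
Log2 signal (x axis) of BCL2L1, PMAIP1 and BCL2L11 (above the line) and of 6 marker genes (below it) on each of the 9 arrays, with colour for the group and shape for the replicate. BCL2L1 and PMAIP1 lie with CD44, AXL, EPCAM and KRT19 in being higher on SID and SCR replicates 1 and 2 than on the other 5 arrays, whereas BCL2L11 is high in SID and low in SCR on those replicates.

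Compared with SCR, SID treatment changed none of the 10 genes past the threshold on all arrays (limma, Benjamini-Hochberg adjusted p below 0.05 and a log2 difference beyond 1). No probe of the whole array passed either (0.0% of 19460), so this count says nothing particular about the family. At an unadjusted p below 0.05, 1 of the 10 genes passed, BCL2L11, against 7.57% of all probes. The mean difference was positive for 7 genes and negative for 3, with a median of 0.15, against 0.0163 over all probes. None of the 10 had SID and SCR arrays that did not overlap, while 4.01% of all probes lay above and 1.65% below. In bulk RNA such as this, a change in every cell and a change in the share of cells that carry a transcript cannot be told apart.

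Replicates 1 and 2 differed from replicate 3 in how far SID lay from SCR. The median size of the difference over the 10 genes came to 0.23, 0.36 and 0.10 in replicates 1, 2 and 3, against 0.17, 0.24 and 0.10 over all probes. With replicates 1 and 2 alone, SID lay above SCR without overlap for 6 genes (BCL2L1, BCL2L11, BBC3, PMAIP1, BMF and BAK1; 32.6% of all probes did so) and below it for 3 (MCL1, BAX and BID; 26.3% of all probes). Of these, BCL2L11 and PMAIP1 were higher at an adjusted p below 0.05, as were 8.77% of all probes, and no member was lower, against 11.0% of all probes. Neither reached the fold limit, which 1.92% of all probes passed upwards and 3.23% downwards.

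**Figure D2:**
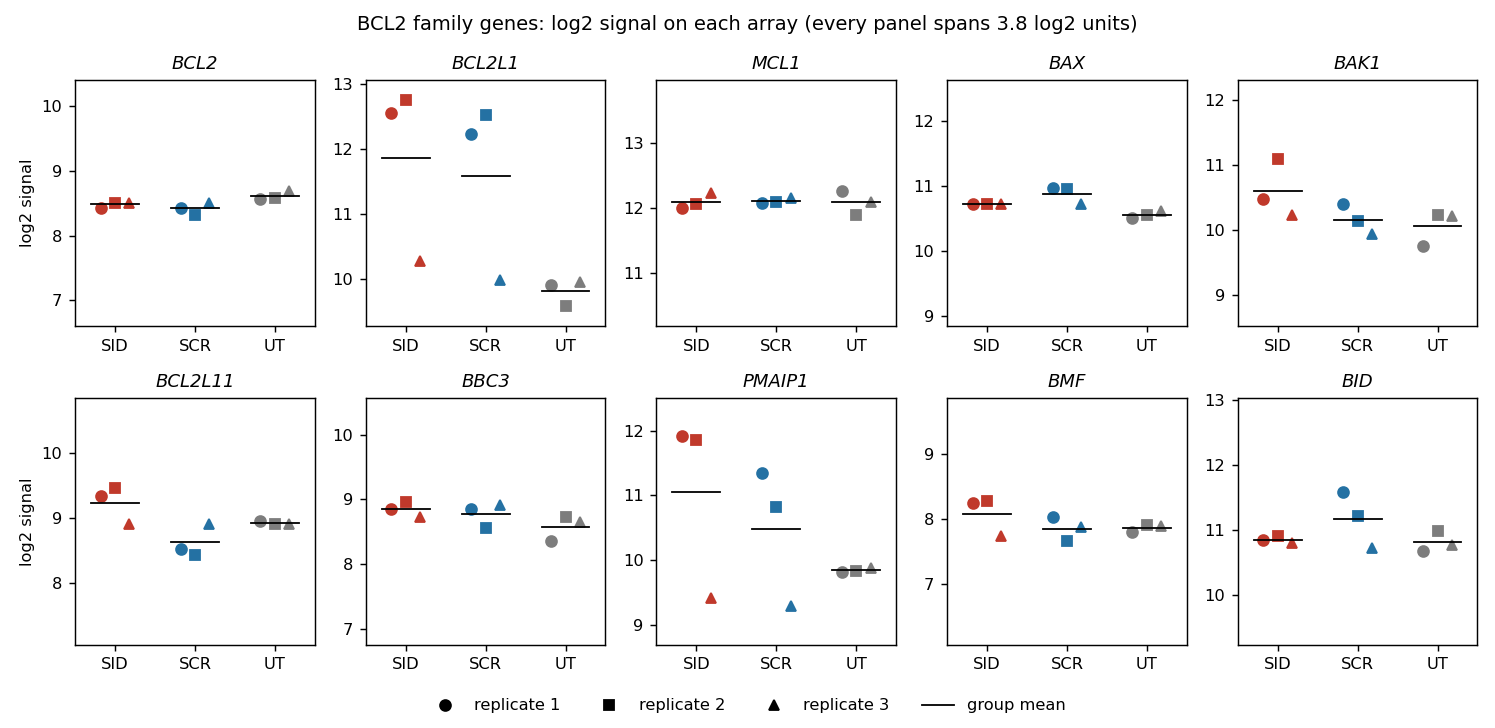
Log2 signal (y axis) of the 10 genes on each array, in SID, SCR and UT, with shapes for the replicate and a line for the group mean. Each panel spans the same number of log2 units. BCL2L1 and PMAIP1 show the widest spread within SID and SCR with replicate 3 near UT, and BCL2L11 is the gene whose replicates 1 and 2 lie above UT in SID and below it in SCR.

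Among the guardians, the strongest pattern was that of BCL2L1, which encodes BCL-XL. Its log2 signal was 12.56, 12.76 and 10.27 in SID replicates 1, 2 and 3, 12.23, 12.53 and 9.98 in SCR and 9.91, 9.58 and 9.95 in UT. SID exceeded SCR within each replicate by a similar amount, 0.33, 0.23 and 0.30, although the level itself differed between the sets of arrays by 2.59 (6.01-fold). It was the only member whose 3 differences, taken by these numbers, lay this close together and above 0.20. Replicates 1 and 2 of SID and SCR correlated about as well across numbers as within them, so this closeness depends on the numbering. The mean difference of 0.29 (SE 0.83 on all arrays) had an adjusted p of 0.977 in limma. With the replicate number as a block, which removes the gap between the sets, the SE was 0.085 and the adjusted p 0.526, and with replicates 1 and 2 alone it was 0.299.

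BCL2, the founding guardian, varied little over the arrays. Its signal was 8.42, 8.50 and 8.51 in SID, 8.43, 8.32 and 8.50 in SCR and 8.57, 8.58 and 8.69 in UT. The SID and SCR arrays overlapped, and all 6 lay below the UT arrays. The difference between SID and SCR was 0.06 (SE 0.072, adjusted p = 0.903, limma) and, with replicates 1 and 2 alone, 0.08 (adjusted p = 0.627). MCL1, whose short-lived protein guards mainly against BAK and BIM, read 12.00, 12.07 and 12.23 in SID, 12.08, 12.10 and 12.15 in SCR and 12.27, 11.89 and 12.10 in UT. Its groups overlapped on all arrays, and the whole range of the 9 arrays was 0.39. With replicates 1 and 2 alone SID (12.00 and 12.07) lay only just below SCR (12.08 and 12.10). The difference between SID and SCR was -0.02 (SE 0.11, adjusted p = 0.999, limma), with -0.06 (adjusted p = 0.825) in replicates 1 and 2 alone, and its sign turned when arrays were centred on their medians.

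Of the effectors, BAX had nearly the same signal on all SID arrays, 10.73 ± 0.0044 (SD, n = 3), while SCR gave 10.97, 10.95 and 10.73 and UT 10.51, 10.56 and 10.61. SID therefore lay below SCR on replicates 1 and 2 and level with it on replicate 3, and both peptide groups lay above UT. Equal values are frequent in the deposited data, where 15.7% of 33297 probes had the same value on 3 or more arrays. A very small SD may therefore not measure precision. The BAX promoter shown above holds 4 E-boxes, and whether they bear on these values was not tested. BBC3, whose window also holds CACGTG, had a positive mean difference of 0.07. For BAX the mean difference between SID and SCR was -0.15 (SE 0.079, adjusted p = 0.687, limma), and in replicates 1 and 2 alone it was -0.23 (adjusted p = 0.126).

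BAK1, the effector that sits in the mitochondrial membrane before any signal, read 10.48, 11.09 and 10.23 in SID, 10.40, 10.14 and 9.94 in SCR and 9.75, 10.23 and 10.22 in UT. SID was the higher in every replicate, by 0.07, 0.96 and 0.29, but the groups overlapped and most of the mean of 0.44 came from SID replicate 2. Without that array the difference was 0.19. On all arrays the SE was 0.25 and the adjusted p 0.692 (limma), and with replicates 1 and 2 alone the difference was 0.52 (adjusted p = 0.216).

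The BH3-only genes held the largest differences, and BCL2L11, which encodes BIM, a binder of all guardians, led them. It read 9.33, 9.46 and 8.90 in SID, 8.52, 8.43 and 8.90 in SCR and 8.95, 8.90 and 8.91 in UT. Replicates 1 and 2 thus placed SID above UT and SCR below UT, by 0.47 and -0.45 in the mean, while replicate 3 of both peptides matched UT. SID minus SCR was 0.81, 1.03 and 0.00 by replicate. Equal values are frequent in the deposited data, as told for BAX, so the 0.00 may not measure precision. On all arrays the mean of 0.61 (SE 0.17) had an adjusted p of 0.657 in limma. In replicates 1 and 2 alone it was 0.92 (SE 0.096, 1.89-fold, adjusted p = 0.00303), and SID lay above UT (adjusted p = 0.0109) and SCR below it (adjusted p = 0.0141). In these comparisons with UT, treatment and set of arrays cannot be told apart. At an unadjusted p below 0.05 in limma, a looser limit than an adjusted p, 7932 of 19460 probes passed in SID against UT in this fit. In SCR against UT 7625 did. The difference from SCR kept an adjusted p of 0.0190 when the 4 peptide arrays of replicates 1 and 2 were fitted without UT. That fit was chosen after seeing the data, and 6077 of 19460 probes had an unadjusted p below 0.05 in it. Between the sets of arrays the mean of BCL2L11 differed by 0.02, SID lying above and SCR below the other arrays.

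PMAIP1, which encodes NOXA, the BH3-only partner of MCL-1, read 11.91, 11.86 and 9.41 in SID, 11.35, 10.82 and 9.29 in SCR and 9.82, 9.83 and 9.88 in UT. Replicates 1 and 2 of both peptides were far above UT, replicate 3 of both was below it, and SID exceeded SCR in every replicate, by 0.56, 1.04 and 0.12. The mean of 0.57 (SE 0.75) had an adjusted p of 0.912 on all arrays in limma. In replicates 1 and 2 alone it was 0.80 (SE 0.17, 1.74-fold, adjusted p = 0.0242), and without the UT arrays the same difference had an adjusted p of 0.0709. The gap between the sets of arrays, 1.84, was larger than the difference between the peptides.

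BMF, whose protein is tethered to the cytoskeleton until released, read 8.25, 8.27 and 7.73 in SID, 8.02, 7.65 and 7.87 in SCR and 7.80, 7.90 and 7.89 in UT. SID was higher on replicates 1 and 2 and lower on replicate 3, and the groups overlapped. The difference was 0.23 (SE 0.16, adjusted p = 0.758, limma) and, with replicates 1 and 2 alone, 0.42 (adjusted p = 0.0805). BBC3, which encodes PUMA, a BH3-only protein that binds all guardians, read 8.85, 8.96 and 8.72 in SID, 8.85, 8.56 and 8.91 in SCR and 8.36, 8.72 and 8.65 in UT. It had no common direction over the replicates, at 0.01, 0.41 and -0.19, and a mean of 0.07 (SE 0.13, adjusted p = 0.946, limma), or 0.21 (adjusted p = 0.456) in replicates 1 and 2 alone.

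BID, which links death receptors to mitochondria once caspase-8 has cut its protein, was the member with the lowest mean difference. It read 10.84, 10.91 and 10.80 in SID, 11.59, 11.21 and 10.72 in SCR and 10.67, 10.98 and 10.77 in UT. The SID arrays lay with the UT arrays, and the high values were those of SCR replicates 1 and 2. SID minus SCR was -0.75, -0.31 and 0.08 by replicate, with a mean of -0.32 (SE 0.20, adjusted p = 0.724, limma), and -0.53 (adjusted p = 0.0700) in replicates 1 and 2 alone. Array weights estimated by limma were 3.49, 0.747 and 0.137 for SID replicates 1, 2 and 3, and 2.95, 0.7 and 0.176 for SCR. Replicate 3 of both peptides thus had the lowest weights, and the comparison rests mostly on replicate 1 of each. UT replicate 3 had the highest weight, 6.92, and enters the estimate of the spread. The weights came from these same arrays and are low where an array departs from its group. The p-values obtained with the weights are therefore no separate support. With these weights the difference was -0.63 for BID (adjusted p = 0.00942), -0.23 for BAX (adjusted p = 0.0189) and 0.82 for BCL2L11 (adjusted p = 0.00198). At an adjusted p below 0.05, 12.2% of all probes were higher and 13.8% lower in that fit. PMAIP1 (0.66, adjusted p = 0.169) and BMF (0.29, adjusted p = 0.0593) did not pass there, nor did the other 5 members (adjusted p of 0.412 to 0.859).

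**Figure D3:**
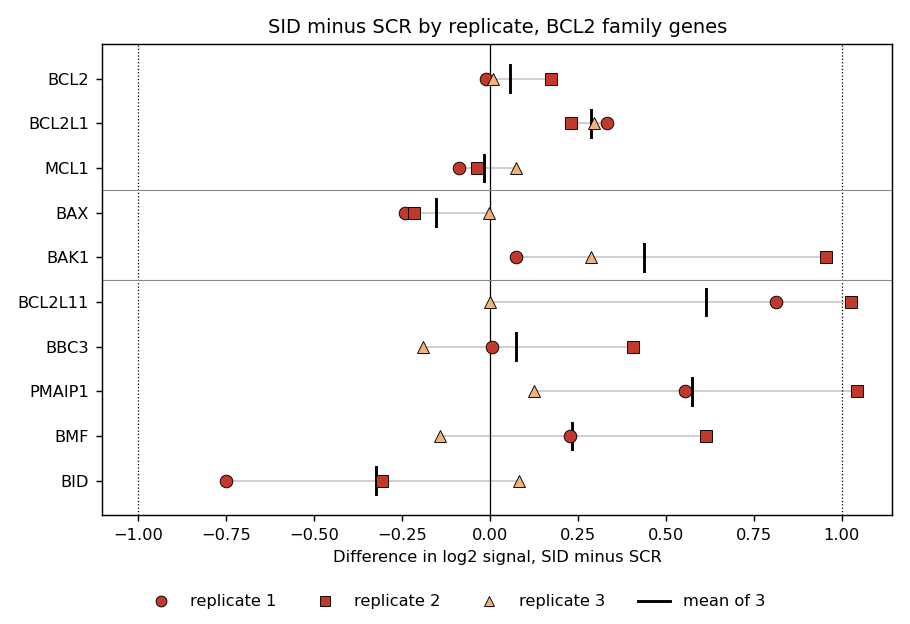
Difference in log2 signal, SID minus SCR (x axis), of each gene within replicates 1, 2 and 3 (points) and in the mean (bar), with guardians, effectors and BH3-only genes parted by lines and 2-fold limits dotted. The points of replicate 3 lie between -0.19 and 0.30, and BCL2L11 and PMAIP1 reach past the 2-fold limit in replicate 2 alone.

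Set against untreated cells, each peptide group shared the UT arrays with the other, so the values stand side by side and are not independent. On all arrays no probe passed the threshold in SID against UT (0.0%) or in SCR against UT (0.0%). At an unadjusted p below 0.05, 12.5% of all probes passed in SID against UT, with BCL2L1 alone among the members. In SCR against UT 14.4% of all probes did, with BAX and BCL2 among the members (adjusted p = 0.332 and 0.333, limma). All 3 SID arrays lay above the UT arrays for BCL2L1 and BAX (10.7% of all probes) and below them for BCL2 (8.05% of all probes). The same 3 genes parted SCR from UT in the same directions (9.52% and 12.0% of all probes). BCL2L1 differed from UT by 2.06 in SID (SE 0.83, adjusted p = 0.388) and by 1.77 in SCR (SE 0.83, adjusted p = 0.363). Its 2 replicates with high signal were 7.22-fold above UT in SID and 5.94-fold in SCR, while SID replicate 3 was 0.46 above the UT mean and SCR replicate 3 was 0.16 above it.

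For PMAIP1, replicates 1 and 2 were 4.11-fold above UT in SID and 2.36-fold in SCR, while replicate 3 differed from the UT mean by -0.43 in SID and -0.56 in SCR. BCL2L1 and PMAIP1 were the members whose signal on the 4 peptide arrays of replicates 1 and 2 lay wholly above the other 5 arrays, as it did for 16.6% of all probes, and no member lay wholly below, against 15.4%. Both were above by more than 1.5 in the mean, a gap that 3.42% of all probes had. In replicates 1 and 2 alone, BCL2L1 was called higher in SID (2.92, adjusted p = 4.7e-05) and in SCR (2.64, adjusted p = 8.6e-05) than in UT. PMAIP1 was likewise called higher in SID (2.06, adjusted p = 0.000275) and in SCR (1.26, adjusted p = 0.00246). Of all probes, 7.12% were called higher in SID than in UT and 6.81% in SCR than in UT in this fit. These contrasts compare arrays of the one set with arrays of the other, and treatment and set cannot be told apart in them. CD44, CAV1, AXL, EPCAM and KRT19 moved with the same sets, and their part in the result was not tested.

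BCL2L11, the member with the largest mean difference, was compared with every other gene over the 9 arrays. The 5 genes with the most similar profile were B3GNT4 (Pearson r 0.993), ARMCX3 (0.988), DYM (0.986), TGIF1 (0.985) and CNOT8 (0.985). TGIF1, a SIN3A partner that represses TGF-β target genes, read 12.81, 12.91 and 12.14 in SID, 11.65, 11.61 and 12.09 in SCR and 12.31, 12.33 and 12.28 in UT. Like BCL2L11, it was highest on SID replicates 1 and 2, lowest on SCR replicates 1 and 2 and in between on the other 5 arrays. These coefficients are the highest among all genes by selection, rest largely on the 4 peptide arrays of replicates 1 and 2 and are given as a description with no test.

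Other genes of apoptosis were taken from 6 lists of the pathway. None of their measured members was called between SID and SCR on all arrays. Of 11 further BCL2 family genes, 7 had a positive mean difference and 4 a negative one, with a median of 0.03, and in replicates 1 and 2 alone 3 of the 11 were higher at an adjusted p below 0.05, against 8.77% of all probes, and none was lower. These were the mitophagy receptor BNIP3 (0.72, adjusted p = 0.00758), its relative BNIP3L (0.39, adjusted p = 0.0378) and BOK, an effector-like member (0.54, adjusted p = 0.0219). Their mean differences on all arrays were 0.50, 0.31 and 0.33. BNIP3 read 13.61, 13.58 and 12.82 in SID, 12.76, 12.98 and 12.76 in SCR and 12.38, 12.29 and 12.35 in UT, so that SID exceeded SCR in every replicate and both exceeded UT.

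In the list of the apoptosome and caspases, 6 of 7 measured genes had a negative mean difference, with a median of -0.13 against 0.0163 over all probes, but in replicate 3 all 7 differences were positive, between 0.01 and 0.36. In replicates 1 and 2 alone 2 of the 7 were lower, CASP2 (-0.83, adjusted p = 0.00393) and CASP8 (-0.80, adjusted p = 0.0371), the initiator that cuts BID, against 11.0% of all probes. On all arrays their differences were -0.43 and -0.52. CASP9, the initiator bound by the apoptosome, read 8.79, 8.55 and 11.41 in SID, 9.07, 9.07 and 11.25 in SCR and 11.78, 11.97 and 11.93 in UT. Its difference between SID and SCR was -0.22, or -0.40 (adjusted p = 0.0634) in replicates 1 and 2 alone, smaller than its gap of -2.80 between the sets of arrays, which runs opposite to that of BCL2L1.

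Death receptor genes included the single gene of these lists that was called in replicates 1 and 2 alone. TNFSF10, the ligand TRAIL, read 12.71, 12.42 and 7.46 in SID, 11.30, 11.01 and 7.46 in SCR and 8.20, 8.19 and 8.27 in UT. SID exceeded SCR on replicates 1 and 2 by 1.42 and 1.41 and matched it on replicate 3, where both lay below UT. The difference was 0.94 on all arrays and 1.41 (SE 0.14, adjusted p = 0.00287) in replicates 1 and 2 alone. Of all probes, 1.92% were called higher and 3.23% lower in that fit. The adaptor FADD differed by -0.39 and CFLAR, the inhibitor of caspase-8, by 0.33 on all arrays. Neither passed in replicates 1 and 2 alone, FADD at -0.67 (adjusted p = 0.0803) and CFLAR at 0.42 (adjusted p = 0.146). Over the 8 measured genes of this list, 5 positive and 3 negative, the median was 0.12. The receptor gene TNFRSF10A, named after its values were seen, was the other gene of the list that passed the adjusted p in replicates 1 and 2 alone (-0.45, adjusted p = 0.0321). At that limit 8.77% of all probes were higher and 11.0% lower.

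The remaining lists held genes of both directions. In replicates 1 and 2 alone, 8.77% of all probes were higher and 11.0% lower at an adjusted p below 0.05. Of 6 inhibitors of apoptosis and their antagonists, 3 were positive and 3 negative with a median of -0.06, led by BIRC5, the gene of survivin (-0.25 on all arrays, -0.40 in replicates 1 and 2 alone with an adjusted p of 0.0276), BIRC6 (-0.20, and -0.26 in replicates 1 and 2 alone) and DIABLO (0.16, and 0.24). Among 8 transcription factors known to act on BCL2 family genes, 5 were positive and 3 negative with a median of 0.11. DDIT3, the stress factor CHOP, differed by 0.57, MYC by 0.50 and E2F1 by -0.27, and in replicates 1 and 2 alone MYC was higher by 0.76 (adjusted p = 0.0111), E2F1 was lower (-0.50, adjusted p = 0.0279) and DDIT3 did not pass (0.62, adjusted p = 0.325). USP9X, which removes ubiquitin from MCL-1, led the 4 ubiquitin enzymes at 0.48 on all arrays and 0.71 in replicates 1 and 2 alone (adjusted p = 0.0110), ahead of BTRC (0.13, and 0.22 in replicates 1 and 2 alone) and FBXW7 (0.07, and 0.17), and 3 of the 4 were positive.

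**Figure D4:**
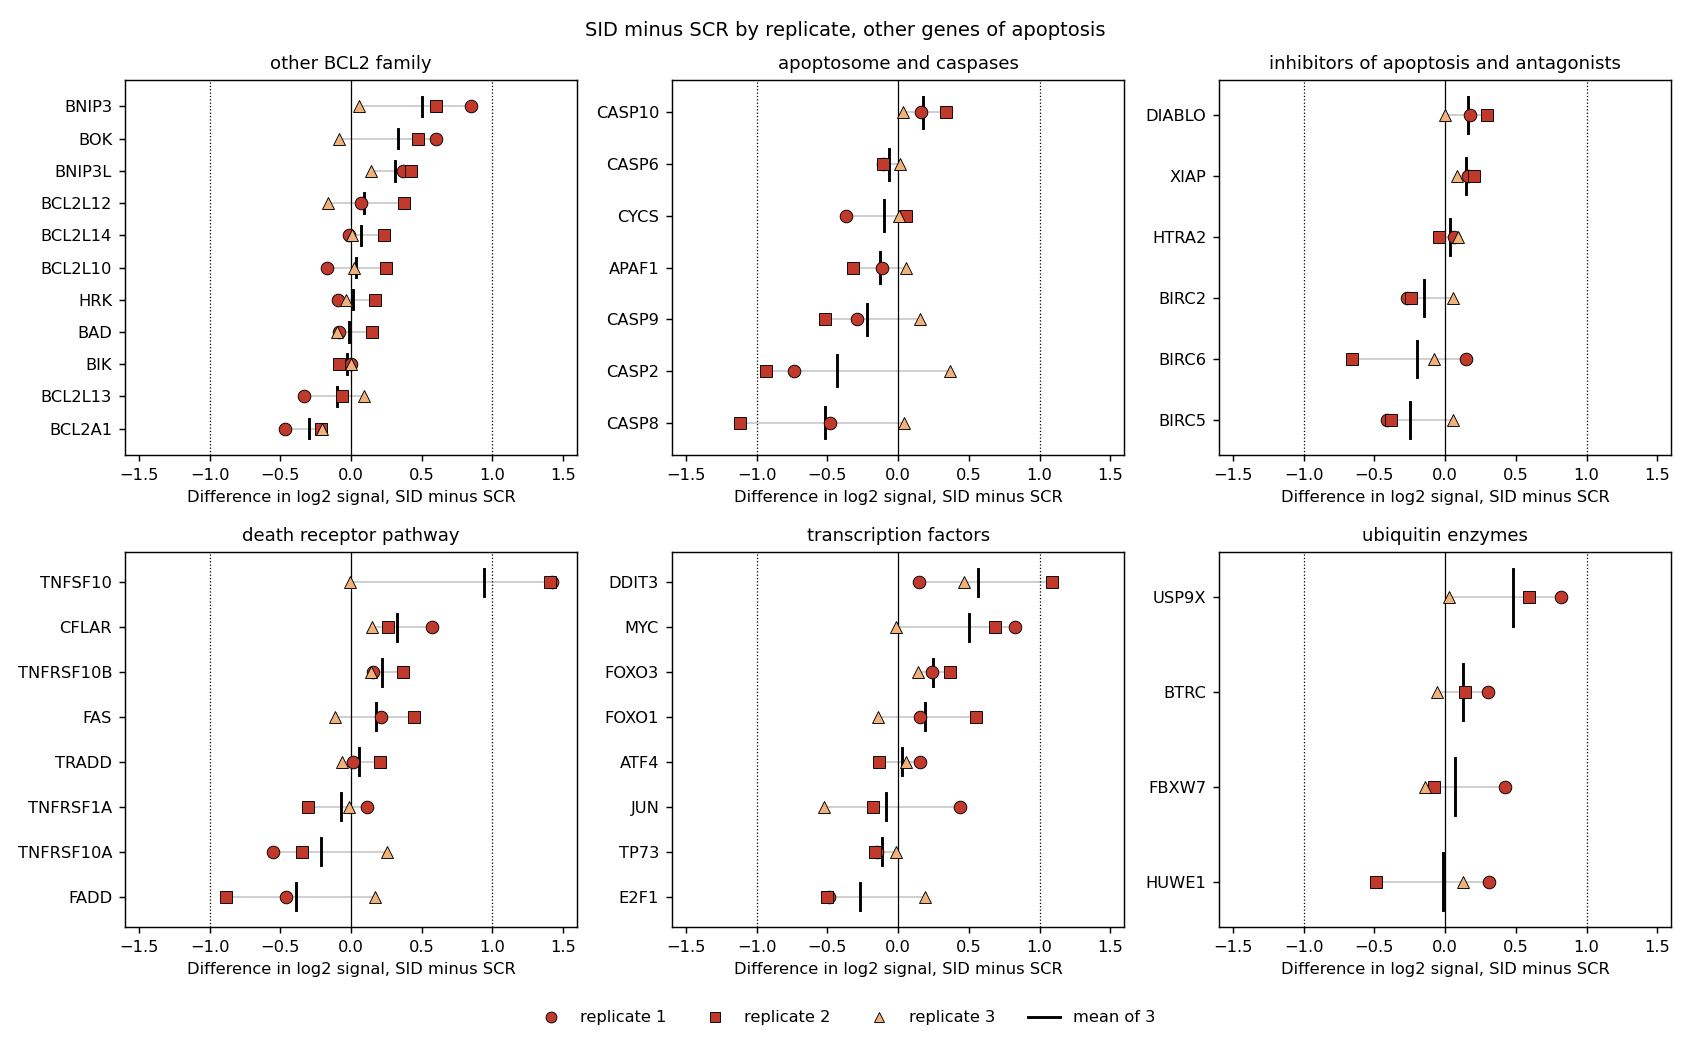
Difference in log2 signal, SID minus SCR (x axis), of the measured genes of 6 apoptosis lists within each replicate (points) and in the mean (bar), with 2-fold limits dotted. TNFSF10 lies past the upper limit in replicates 1 and 2 and near 0 in replicate 3, and CASP2 and CASP8 lie below 0 in replicates 1 and 2 and above it in replicate 3.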

How the data were processed

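RNA of 9 samples (SID, SCR and UT, 3 each) was hybridized to Affymetrix human gene arrays, and the deposited values are signals of the authors on a log2 scale. The submitters' processing notes name Affymetrix Expression Console, RMA and Transcriptome Analysis Console, without versions or settings. Since no source states the scale, it was judged to be log2 by the range of the values (3.75 to 14.94, array medians 7.68 to 7.77). The study's single-probe software, ChipInspector, could not be repeated from values per probe set.

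Of 33297 probes, 19460 carry 1 gene symbol and were tested, 1754 carry several and 12083 none. Group means were compared with limma 3.58.1 (lmFit, eBayes) in R 4.3.3 on all 9 arrays, with Benjamini-Hochberg adjustment over these probes. Called were probes at an adjusted p below 0.05 whose log2 difference was beyond 1 in either direction. The fit of replicates 1 and 2 alone used 6 arrays. The fit of all 9 arrays was tested on simulated data. These had the spread of replicates 1 and 2 and no gap between the sets of arrays. How the fit performs with such a gap was not tested. Tables and figures were made with Python 3.11.15, pandas 2.3.3 and matplotlib 3.10.9.

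The 10 genes and the lists were chosen with earlier results of these data known. Named genes are the 10 members, up to 3 genes per list with the largest mean difference between SID and SCR, and the 5 genes most similar to the member with the largest difference. Some members of the lists are not reported here. The labels number the replicates of every group. Deviations from the group means correlated between same-numbered SID and SCR arrays (0.774, 0.575 and 0.791), so that these numbers were taken as paired, but replicates 1 and 2 correlated as well across numbers (0.748 and 0.604), so that the pairing parts replicate 3 from them and not replicate 1 from replicate 2. They did not pair SID or SCR with UT (-0.0732 to 0.215). The series' design text calls the replicates independent but names no cultures, so p-values measure only the spread between these samples, which may be technical, and the number of arrays limits the precision. Alternatives were quantile normalization, centring, array weights, filters, other tests, a replicate block and arrays left out.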

Additional observations from a re-analysis of the deposited data

How the results depend on the processing

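None of the 10 genes was called between SID and SCR under any alternative run, and their median difference of 0.15 stayed positive, between 0.0317 (without SID replicate 2) and 0.274 (without SID replicate 3) when single arrays were left out. The counts over all probes depended on replicate 3. With array weights, 761 probes were called between SID and SCR, 2389 between SID and UT and 2116 between SCR and UT, and with replicates 1 and 2 alone 1002, 2578 and 2258, against 0 on all arrays with equal weights. A fit of the 4 peptide arrays of replicates 1 and 2, chosen after seeing the data, called 859 between SID and SCR. Leaving out 1 array gave 0 to 648 calls between SID and SCR (648 without SID replicate 3, 223 without SCR replicate 3), 0 to 1946 between SID and UT (1946 without SID replicate 3) and 0 to 1071 between SCR and UT (1071 without SCR replicate 3). The replicate block called 0 probes in each comparison, with 1560 probes at an unadjusted p below 0.05 between SID and SCR, and changed no call. A t-test of SID against SCR called 0 after adjustment and gave 378 at an unadjusted p below 0.05, against 1474 in limma. The methods name t-tests for comparing 2 groups, but ChipInspector for the arrays.

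Signs turned for some members. MCL1 was 0.00872 between SID and SCR after centring. Between SID and UT it was -0.0880 with array weights and -0.0488 with replicates 1 and 2 alone. Between SCR and UT with array weights MCL1 was -0.0131 and BMF 0.0650. Leaving out single arrays turned the sign between SID and SCR for BCL2L1 (-0.515 without SCR replicate 3 to 1.08 without SID replicate 3), PMAIP1 (-0.0244 to 1.40, without the same arrays), MCL1 (-0.0815 to 0.0342) and BBC3 (-0.0321 to 0.144). It did so between SID and UT for MCL1 (-0.0907 to 0.103) and BID (-0.0239 to 0.133), and between SCR and UT for MCL1 (-0.0747 to 0.119), BMF (-0.103 to 0.0810) and BAK1 (-0.0654 to 0.203). Between SID and SCR on all arrays, BCL2L1 differed by 0.29 and PMAIP1 by 0.57, less than their gaps of 2.59 and 1.84 between the sets. With array weights BCL2L1 and PMAIP1 were called higher in SID than in UT (2.62 and 1.96) and in SCR than in UT (2.27 and 1.29). The cause was not tested. No member had a second probe with 1 gene symbol, so the comparison of probes was not run.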
